A study of Mus musculus with 15 samples.

Results

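Of the genes that epithelium switches on while it repairs a wound, 9 were followed in the colon of B6 mice and of Irf1-/- mutants: Psca, Ly6a, Anxa1, Anxa8, Plau, Plaur, Clu, Cst6 and Prss22. They were taken by gene symbol from the deposited count tables. All 9 were found among the 12897 genes listed in at least 1 of the 3 tables. Values for 7 of them were present in all 15 libraries, those for Psca in 12 and those for Prss22 in 6. RNA was sequenced from whole distal colon of mice of the C57BL/6 strain (C57BL/6J in the study's methods), either wildtype (called B6) or Irf1-/-, with 3 mice in each of 5 groups. The groups were B6 control set 1, B6 control set 2 and Irf1-/- mice, all untreated, and B6 and Irf1-/- mice on day 26 (D26) of AOM/DSS. Treated mice received the carcinogen azoxymethane (AOM, 7 mg/kg) on D1 and 2% dextran sulfate sodium (DSS), which injures the colon lining, in drinking water from D8 to D11. Mice were 8 to 10 weeks old at the start. The mutants carry the Irf1 mutation in every cell, lining, stroma and immune cells alike, and no group isolates the epithelium. In bulk tissue, fewer cells of a type and less RNA per cell cannot be told apart.

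IRF1 is a transcription factor induced by interferons. After injury, colon epithelium closes the defect by migration and passes through a state that resembles fetal gut, in which Ly6a (Sca-1), Anxa1 and Clu are well known markers. Epithelium at wound margins also uses the urokinase system, in which the secreted protease urokinase (Plau) binds its receptor on the cell surface (Plaur) and converts plasminogen to plasmin, which digests fibrin and matrix. Psca, Ly6a and Plaur belong to the same family of Ly6/uPAR proteins, held at the cell surface by a lipid anchor.

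Levels are given below as normalised CPM, which are read counts scaled to library size. Groups were compared with edgeR (quasi-likelihood F test), and a gene counts as called where its fold change (FC) reached 1.5 and its p, adjusted by Benjamini-Hochberg over every gene of the table, was under 0.01. Libraries had totals of 22266607 to 22869853 counted reads. Irf1 counts were 1786 to 2769 in Irf1-/- libraries and 2882 to 5188 in B6 libraries, with no overlap. Xist, which is expressed from an X chromosome in female cells, was at 5.97 to 25.2 CPM in 3 treated libraries (B6 D26 mice 1 and 2 and Irf1-/- D26 mouse 1) and at 321 to 3729 CPM in the other 12. The labels give no sex. Treated B6 libraries also differed from the others in base composition: the slope of log2 level on GC content was 0.201 ± 0.0736 (SD, n = 3) per 10% GC in them and between -0.122 and 0.0309 in the other 12. The part of either difference in the values below was not tested, beyond fits without the low-Xist libraries and fits corrected for GC content.

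Deposited tables list genes at 5 CPM or more in at least 3 libraries. Psca, Plaur and Prss22 passed this filter in part only through the group in which they were higher. Psca reached 5 CPM in all mice of the treated groups but not in all mice of either untreated group, Plaur was under 5 CPM in every untreated B6 mouse, and Prss22 was under 2 CPM in every untreated mutant. Their appearance in a table is therefore tied to a difference, and counts over the genes are given as descriptions. In control set 1, level per kilobase of the longest transcript was highest for Anxa1 (108 CPM per kb), Ly6a (88.5) and Anxa8 (69.4). It was intermediate for Clu (30.1) and lowest for Plau (9.40), Cst6 (6.86), Psca (3.85) and Plaur (2.11).

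**Figure D1:**
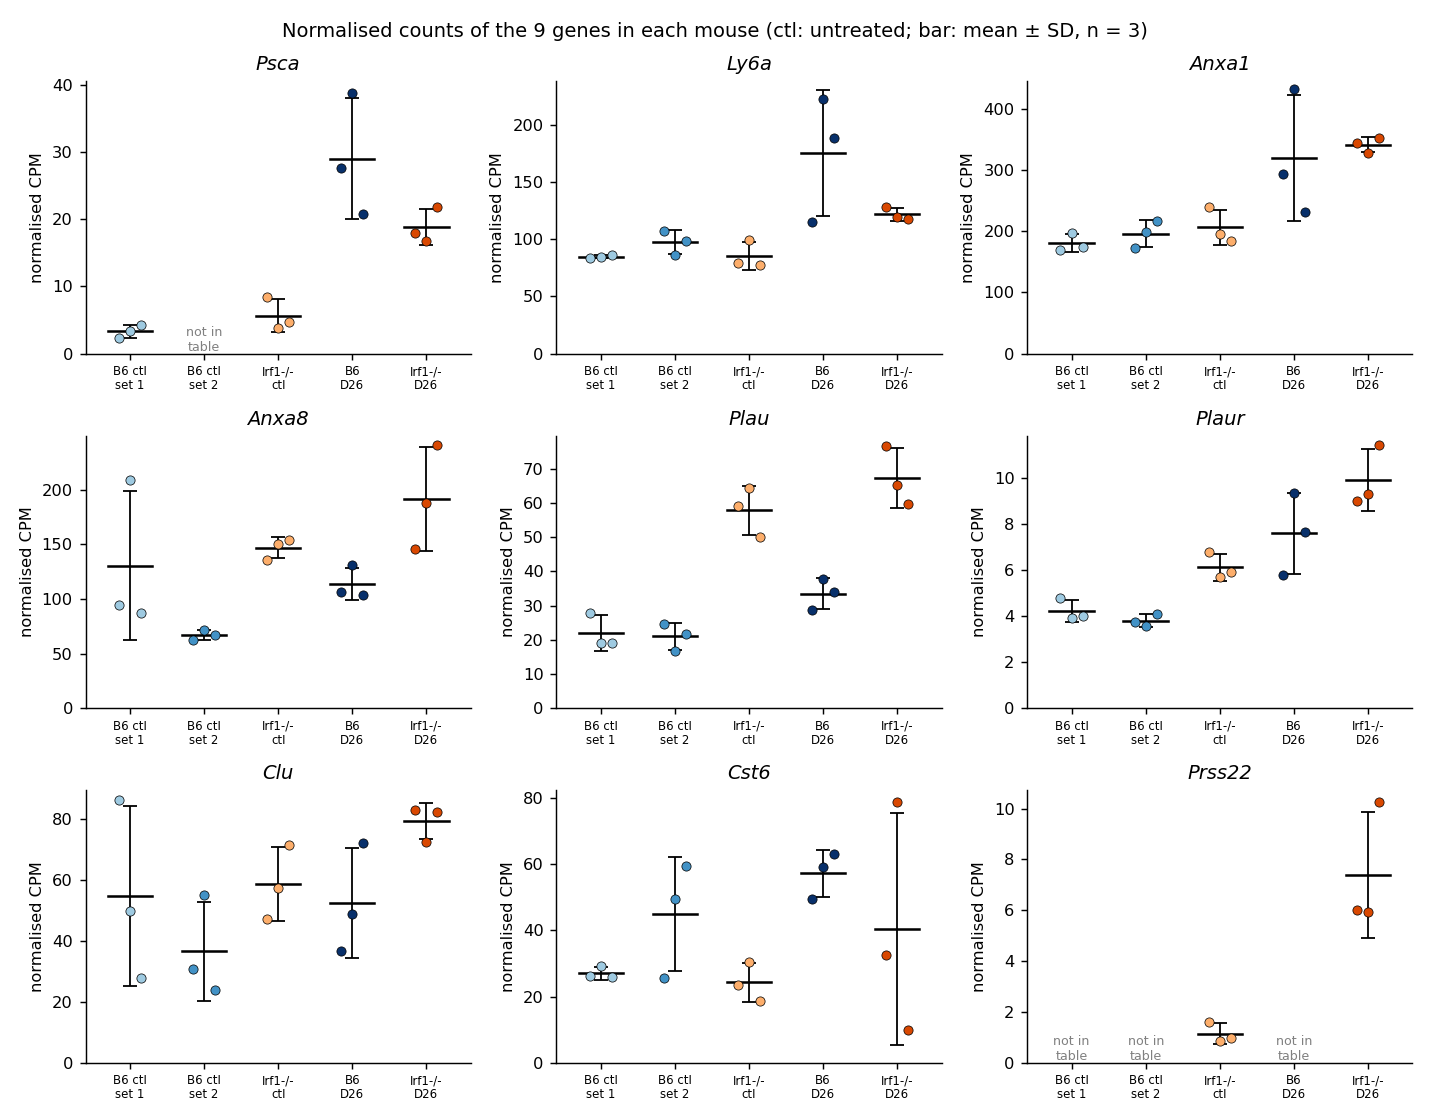
Normalised CPM (y axis, linear, from 0) of the 9 genes in each mouse of the 5 groups (x axis; ctl, untreated). Points are mice, the horizontal bar is the mean and the whiskers are the SD (n = 3). Psca, not listed for control set 2, lies between 2.33 and 8.44 CPM in the other untreated mice and between 16.8 and 38.7 CPM in treated mice. Plau is higher in every Irf1-/- mouse than in every B6 mouse.

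The first question was how these genes stood in the colon on D26 against untreated mice of the same genotype. Psca, Ly6a, Plaur and Anxa1 were higher in every treated mouse than in every untreated mouse of its own genotype, with control set 1 as the B6 controls, and Psca had the largest fold change of the genes tested in both. Averaged over both genotypes, 4 of the 8 genes that could be tested rose (Psca, Ly6a, Anxa1 and Plaur) and none fell, where 0.945% of the 12483 genes tested were called higher. All 8 had positive log2 FC in this average, with a median of 0.77, where 49.4% of all genes were positive. These counts are descriptions only, since the genes were chosen with earlier results of these data known. Psca and Plaur also passed the filter in B6 only through treated mice.

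Psca (prostate stem cell antigen), a surface protein of stomach, bladder and other lining epithelia, was at 2.33, 3.39 and 4.21 CPM in the mice of control set 1 and at 27.5, 38.7 and 20.8 CPM in treated B6 mice. In untreated mutants it was at 8.44, 3.78 and 4.68 CPM, and in treated mutants at 17.9, 16.8 and 21.8 CPM. Every treated mouse was above every mouse of control set 1 and every untreated mutant, while control set 2 had no Psca values. The rise in B6 was 8.79-fold (log2 FC 3.14 ± 0.27 SE, adjusted p = 0.00685, edgeR), where 0.0316% of 12643 genes were called higher. In mutants the FC was 3.35 (log2 FC 1.74 ± 0.26 SE, adjusted p = 0.0207, edgeR) and did not pass the test. The mean over both genotypes was 5.40-fold (adjusted p = 0.000146, edgeR). The B6 call was also lost without control mouse 1, 2 or 3 or treated mouse 3 (adjusted p of 0.0103 to 0.0377), and when the fit was corrected for GC content (log2 FC 2.96, adjusted p = 0.0206, edgeR).

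Ly6a, which encodes the surface antigen Sca-1, was at 83.3 to 86.0 CPM in control set 1, 86.2 to 107 CPM in control set 2 and 77.7 to 99.4 CPM in untreated mutants. Treated B6 mice were at 115, 223 and 188 CPM, and treated mutants at 128, 119 and 118 CPM. Treated mice were all above the untreated ones, and the treated mutants lay close together. Ly6a rose 1.72-fold in the mean response (log2 FC 0.78 ± 0.13 SE, adjusted p = 0.00261, edgeR). In each genotype alone it did not pass the test, with log2 FC of 1.06 in B6 (adjusted p = 0.0228) and 0.51 in mutants (adjusted p = 0.0399). Ly6a has close relatives in the genome, among them Ly6c1 and Ly6c2, and reads they share may be counted to either.

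Other genes of the Ly6/uPAR family were measured beside these. Of 26 listed, 9 could be tested in the mean response, and all 9 had positive log2 FC with a median of 0.33. Of these, 2 rose: Ly6d (log2 FC 0.95, adjusted p = 0.00146, edgeR) and Lypd3 (0.94, adjusted p = 0.00637), both surface proteins of stratified epithelium. In each genotype alone no gene of this list was called by edgeR, and 5 of 10 in B6 and 4 of 10 in mutants had an unadjusted p under 0.05, where 29.5% and 18.6% of all genes did. Lypd3 was at 3.70 to 6.61 CPM in control set 1 and passed the filter of the B6 table only with the treated mice.

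Anxa1, which binds phospholipid and calcium and acts through formyl peptide receptors to help end inflammation, was at 169 to 197 CPM in control set 1 and at 172 to 216 CPM in set 2. Untreated mutants were at 239, 196 and 184 CPM. Treated B6 mice were at 294, 432 and 231 CPM, and treated mutants at 344, 328 and 351 CPM. Each treated group was above its own untreated group, although the lowest treated B6 mouse was below the highest untreated mutant. Anxa1 rose 1.71-fold in the mean response (log2 FC 0.77 ± 0.12 SE, adjusted p = 0.0025, edgeR). Without the 3 low-Xist libraries, which leaves 1 treated B6 mouse, the log2 FC was 0.54, under the FC threshold. In each genotype alone the log2 FC was 0.83 in B6 (adjusted p = 0.0381) and 0.73 in mutants (adjusted p = 0.0155).

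Promoter sequences from RefSeq (GRCm38.p6, from 250 bases before to 50 after the start) were matched for 3 of the genes: Anxa1, Anxa8 and Plaur. Psca, Ly6a, Plau, Clu, Cst6 and Prss22 were not matched. Both strands were searched for 4 short motifs, named for the factors that bind such letters: AP-1 (TGANTCA), TEAD (GGAATG), interferon response (GAAANNGAA) and STAT (TTCNNNGAA). These occur in 7.81%, 14.7%, 8.56% and 8.3% of 32851 RefSeq promoters of the same length. Anxa1 held 1 TEAD match, on the other strand, beginning at position -236 relative to the start. Plaur held 1 AP-1 match beginning at -69, and Anxa8 held none of the 4. A match describes letters only and does not show that a factor binds. The 250 bases upstream of the 2 genes with a match are shown on the strand of the gene (Anxa1 chr19:20390672-20390921, minus strand, and Plaur chr7:24462233-24462482, plus strand), with the match in capitals.
Anxa1: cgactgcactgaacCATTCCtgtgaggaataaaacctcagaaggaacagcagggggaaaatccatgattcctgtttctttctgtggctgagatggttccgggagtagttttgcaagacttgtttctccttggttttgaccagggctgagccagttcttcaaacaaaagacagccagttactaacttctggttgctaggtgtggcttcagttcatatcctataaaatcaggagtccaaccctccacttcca
Plaur: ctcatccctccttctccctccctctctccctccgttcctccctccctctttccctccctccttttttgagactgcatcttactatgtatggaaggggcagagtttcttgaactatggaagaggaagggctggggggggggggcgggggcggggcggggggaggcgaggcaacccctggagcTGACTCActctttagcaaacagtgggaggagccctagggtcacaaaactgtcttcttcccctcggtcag

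Anxa8, an annexin of stratified epithelium, was not called in either genotype. Control set 1 was at 94.5, 209 and 87.6 CPM, so that its mouse 2 stood far above the other two, and treated B6 mice were at 107, 131 and 103 CPM. Untreated mutants were at 136, 151 and 154 CPM and treated mutants at 146, 188 and 241 CPM. The log2 FC was -0.19 in B6 (95% interval -0.85 to 0.47) and 0.38 in mutants (0.03 to 0.74), and neither passed the test. Against control set 2 in place of set 1, however, the B6 log2 FC was 0.78 (adjusted p = 0.00848, edgeR), and without mouse 2 of set 1 it was 0.34 (adjusted p = 0.127). Among the other annexins and the receptors of Anxa1, 9 of 13 listed genes could be tested and none was called in any of the 7 comparisons by edgeR, with 15 of 63 values at an unadjusted p under 0.05, where 10.4% to 34.2% of all genes were in these comparisons. The smallest p values belonged to Anxa7, between the control sets (log2 FC -0.31, adjusted p = 0.127), and Anxa2, in the B6 response (0.40, adjusted p = 0.0695).

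Plaur, the urokinase receptor, was at 3.92 to 4.80 CPM in control set 1 and 5.80, 9.35 and 7.65 CPM in treated B6 mice. Untreated mutants were at 6.80, 5.69 and 5.91 CPM and treated mutants at 8.99, 9.30 and 11.5 CPM. Groups did not overlap between untreated and treated mice of either genotype. Plaur rose 1.70-fold in the mean response (log2 FC 0.77 ± 0.13 SE, adjusted p = 0.00289, edgeR). Without the second untreated mutant the adjusted p was 0.0106, and without the third it was 0.0101. The log2 FC was 0.85 in B6 (adjusted p = 0.0408) and 0.70 in mutants (adjusted p = 0.0514), so neither genotype passed alone.

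Plau, urokinase itself, went from 28.0, 19.0 and 19.1 CPM in control set 1 to 28.8, 37.6 and 34.1 CPM in treated B6 mice. These groups did not overlap, but the difference did not pass the test (log2 FC 0.62, adjusted p = 0.0536, edgeR). In mutants the log2 FC was 0.22 (95% interval -0.04 to 0.48). Prss22, an epithelial serine protease of the tryptase family known to activate the urokinase precursor, was listed only in the table of the Irf1-/- response. It was at 1.60, 0.85 and 0.97 CPM in untreated and at 6.00, 5.92 and 10.3 CPM in treated mutants. Prss22 rose 6.48-fold (log2 FC 2.70 ± 0.32 SE, adjusted p = 0.00772, edgeR) and was the only one of the 9 genes called in this comparison, where 0.205% of 12692 genes were called higher. The call was lost without untreated mouse 1, 2 or 3 or without treated mouse 2 (adjusted p of 0.0258 to 0.0602, edgeR). Of the other genes of the plasminogen system, 11 of 19 listed could be tested in the mean response. Plat, the tissue-type activator of plasminogen, alone rose (log2 FC 0.60, adjusted p = 0.00861, edgeR), and 9 of the 11 were positive with a median of 0.20.

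Clu, which encodes a secreted chaperone and is made by follicular dendritic cells as well as by repairing epithelium, was at 86.1, 49.8 and 27.8 CPM in control set 1 and 36.5, 48.6 and 72.0 CPM in treated B6 mice. The B6 groups overlapped (log2 FC -0.05, 95% interval -0.89 to 0.79). Untreated mutants were at 47.0, 57.1 and 71.3 CPM and treated mutants at 82.9, 72.5 and 82.2 CPM, without overlap. The difference in mutants did not pass the test (log2 FC 0.44, adjusted p = 0.125, edgeR).

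Cst6, cystatin E/M, which inhibits legumain and lysosomal cathepsins in squamous epithelium, was at 26.1, 29.3 and 25.8 CPM in control set 1 and 49.5, 59.3 and 63.2 CPM in treated B6 mice. It rose 2.13-fold in B6 (log2 FC 1.09 ± 0.11 SE, adjusted p = 0.00796, edgeR). Control set 2, however, was at 25.7, 49.7 and 59.4 CPM. Against that set the log2 FC was 0.37 (adjusted p = 0.315, edgeR), and the call was also lost with both sets pooled (0.68, adjusted p = 0.085) and after correction for GC content (log2 FC 1.02, adjusted p = 0.0206). Leaving out control mouse 1, 2 or 3 or treated mouse 3 gave log2 FC of 1.01 to 1.16 and adjusted p of 0.0245 to 0.0469. Treated mutants were at 32.7, 78.9 and 9.81 CPM, the widest spread of any group, against 23.5, 30.5 and 18.8 CPM untreated. The log2 FC there was 0.74 (95% interval -0.55 to 2.03). In the mean response Cst6 was not called (log2 FC 0.91, adjusted p = 0.0746, edgeR), and without treated mutant 3 it was (1.15, adjusted p = 0.00397). Of the other cystatins, cathepsins and epithelial serine proteases, 19 of 25 listed could be tested in the mean response. Prss27, a membrane-anchored protease of squamous epithelium, alone rose (log2 FC 1.93, adjusted p = 0.000896, edgeR). It was at 1.16 to 2.40 CPM in untreated mice of both response tables and above 5 CPM in every treated mouse, so it too passed the filter only through the treated groups.

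In each genotype alone, then, 2 of 8 genes were called in B6 (Psca and Cst6) and 1 of 9 in mutants (Prss22) by edgeR's quasi-likelihood test, against 6 of 8 and 4 of 9 by DESeq2, which called 3.49% of all genes in B6 and 1.74% in mutants in either direction. Levels of treated and untreated mice did not overlap, treated being higher, for 6 of 8 genes in B6 and for 6 of 9 in mutants. This separation was found for 16.4% of all genes in B6 and 12.2% in mutants. Psca and Plaur in B6, and Psca and Prss22 in mutants, passed the filter only through treated mice. The counts are therefore descriptions and no test of the genes as a set. Median log2 FC was 0.84 over the genes in B6 and 0.70 in mutants, where the median of all genes was 0.01 in each. Of a wider list of 28 genes of fetal-like and regenerating epithelium, 24 could be tested in the mean response, 19 were positive with a median of 0.27, and 2 rose. S100a11, a calcium-binding protein, was among them (log2 FC 0.60, adjusted p = 0.0058, edgeR).

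**Figure D2:**
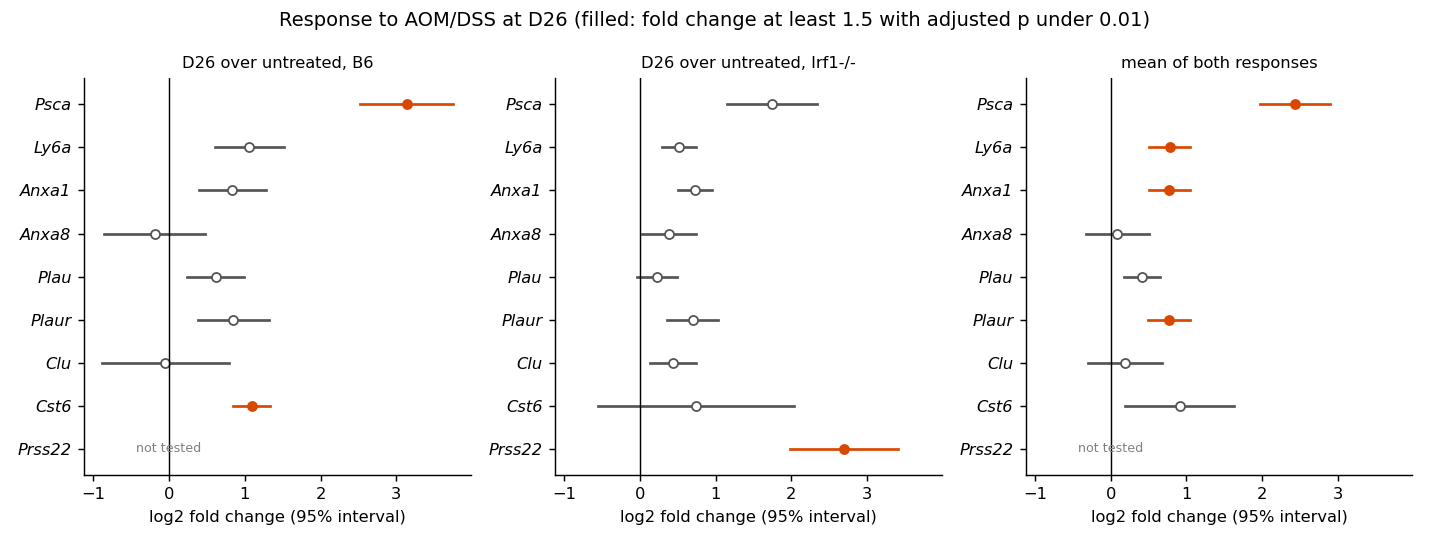
Log2 FC of treated over untreated mice (x axis) for each of the genes (y axis) in B6, in Irf1-/- mutants and averaged over both (points with 95% intervals, filled where called, line at 0 for no change). Psca has log2 FC of 3.14 in B6 and 1.74 in mutants, and Prss22 could be tested only in mutants.

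The next question was whether the response differed with genotype. None of the 8 genes tested was called for the difference of the responses (mutant minus B6) by edgeR, nor by DESeq2, where 0.016% and 0.601% of 12483 genes were called in either direction. At an unadjusted p under 0.05, 2 of the 8 and 16.9% of all genes passed. Psca had the lowest adjusted p, with a response smaller in mutants by a log2 difference of -1.39 (95% interval -2.30 to -0.48, adjusted p = 0.136, edgeR). For Ly6a the difference was -0.54 (95% interval -1.08 to -0.000943, adjusted p = 0.295). For Anxa1 it was -0.10 (-0.63 to 0.43) and for Plaur -0.15 (-0.70 to 0.40). The intervals of Cst6 (-1.77 to 1.09) and Clu (-0.48 to 1.47) were too wide to show differences of the size of the responses themselves.

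At steady state, Plau and Anxa8 were higher in Irf1-/- mutants than in control set 2. These were 2 of the 7 genes tested, where 0.0874% of 12588 genes were called higher. Groups did not overlap, mutants being higher, for Plau, Anxa8 and Plaur, where 7.83% of all genes were so separated. Plaur passed the filter here only through the mutants. This comparison shares its mutant libraries with the Irf1-/- response, so the values are given side by side only.

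Plau was at 59.0, 64.5 and 50.1 CPM in untreated mutants and at 24.5, 16.7 and 21.8 CPM in control set 2. Its level was 2.75-fold higher in mutants (log2 FC 1.46 ± 0.14 SE, adjusted p = 0.000691, edgeR). On D26, treated mutants were at 76.8, 65.4 and 59.6 CPM, and Plau was 1.99-fold higher than in treated B6 (log2 FC 0.99 ± 0.13 SE, adjusted p = 0.00856, edgeR). It was the only one of 8 genes called there, where 0.0721% of 12483 genes were called higher. Over all 15 libraries, the lowest Irf1-/- value (50.1 CPM) was above the highest B6 value (37.6 CPM). The steady-state call held against either control set. The D26 call was lost without any single mouse of the 6, with log2 FC of 0.88 to 1.09 and adjusted p of 0.0125 to 0.05.

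Anxa8 was 2.20-fold higher in untreated mutants than in control set 2, whose mice were at 62.1, 71.8 and 66.9 CPM (log2 FC 1.14 ± 0.08 SE, adjusted p = 9.17e-05, edgeR). Against control set 1 the log2 FC was 0.17 (adjusted p = 0.774), and against both sets 0.57 (adjusted p = 0.695). The call therefore rested on which B6 controls were used. Between the control sets themselves, the log2 FC of Anxa8 was -0.96 (set 2 over set 1, adjusted p = 0.117, edgeR) with no overlap. On D26 the mutants were all above the treated B6 mice (log2 FC 0.73, adjusted p = 0.0635, edgeR), without passing the test. By DESeq2 Anxa8 passed (adjusted p = 0.000992). Leaving out the 3 low-Xist libraries gave a log2 FC of 1.04, but leaves 1 treated B6 mouse.

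Plaur at steady state had a log2 FC of 0.69 (adjusted p = 0.0714, edgeR), with control set 2 at 3.77, 3.55 and 4.11 CPM. Clu had 0.68 (adjusted p = 0.383) and Cst6 -0.89 (adjusted p = 0.221). Ly6a (-0.19) and Anxa1 (0.08) lay near 0. Psca was not listed for control set 2, and against control set 1 its log2 FC was 0.76 ± 0.31 SE (adjusted p = 0.195). On D26, Anxa8, Plau and Clu were higher in every mutant than in every B6 mouse, where 14.5% of all genes were so separated. Psca (log2 FC -0.64, adjusted p = 0.13) and Ly6a (-0.54, adjusted p = 0.169) had lower means in mutants without passing the test. The median log2 FC was 0.68 over 7 genes at steady state, without Psca, and 0.23 over 8 genes on D26. These medians cover different genes, and the medians of all genes were 0.00191 and -0.00841.

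Control sets 1 and 2 are untreated B6 mice of the same description, but they differ in markers of B and plasma cells. The summed level of the 5 markers in all tables was 581 to 656 CPM in set 1 and 222 to 247 CPM in set 2, and all 5 had negative log2 FC (set 2 over set 1, median -1.21), with Igj called (-1.39, adjusted p = 7.44e-05, edgeR). In untreated mutants over set 2 all 5 were positive (median 1.17), and none was called by edgeR although all 5 had an unadjusted p under 0.05, as 10.4% of all genes did. Clu, Anxa8, Plau and Plaur had log2 FC of the same signs as these markers in both comparisons. Between the control sets, Plau (-0.0653) and Plaur (-0.15) lay nearer 0. Over the 15 libraries, r with the summed B and plasma cell level was 0.02 for Clu, 0.10 for Anxa8, -0.19 for Plau and -0.11 for Plaur. With group means removed r was -0.02, -0.15, 0.51 and 0.07. The part of B and plasma cells in these genes was not tested. None of 7 genes was called between the control sets by edgeR's quasi-likelihood test or DESeq2 (0.0644% and 1.16% of 12417 genes were, in either direction). The exact test called Anxa8, and Cst6 was called without mouse 1 of set 2 (log2 FC 1.01, adjusted p = 0.00596, edgeR). An unadjusted p under 0.05 was found for 3 of the 7 and for 17.2% of all genes. Ly6a was higher in every mouse of set 2 (10.4% of all genes were) and Anxa8 lower (11% of all genes were). The log2 FC was 0.20 for Ly6a, 0.73 for Cst6 and -0.58 for Clu.

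**Figure D3:**
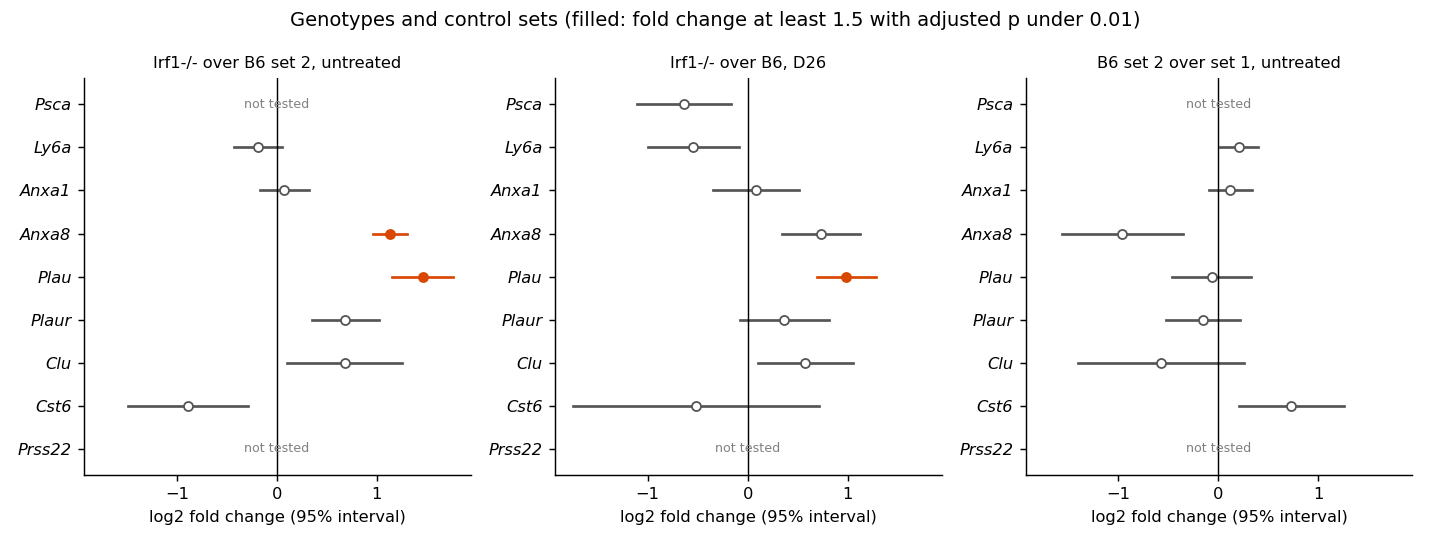
Log2 FC (x axis) for each of the genes (y axis) between untreated Irf1-/- mutants and B6 control set 2, between treated mutants and treated B6, and between the control sets (points with 95% intervals, filled where called, line at 0 for no change). Plau has log2 FC of 1.46 untreated and 0.99 treated, and Anxa8 has 1.14 in mutants over set 2 and -0.96 in set 2 over set 1.

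Several of the genes are also expressed by squamous epithelium, which lines the anal canal beyond the distal colon, so its markers were read in the same libraries. All 15 listed squamous markers were present in every table. Their summed level was 477 to 960 CPM in untreated B6, 663 to 1049 CPM in untreated mutants, 930 to 1498 CPM in treated B6 and 942 to 2081 CPM in treated mutants. In the mean response 13 of the 15 were positive with a median log2 FC of 0.52, and Krt14 (1.79), Krt6a (1.83), Krt5 (1.53) and Krt6b (1.43) were called. The part of squamous tissue in the responses of Psca, Ly6a, Anxa1 and Plaur was not tested. Across the 15 libraries, Pearson r with the summed squamous level was 0.75 for Anxa1, 0.77 for Plaur and 0.49 for Ly6a, and 0.34, 0.58 and 0.01 once group means were removed. For Plau, Anxa8, Clu and Cst6 it was 0.42, 0.36, 0.33 and 0.13, and -0.25, -0.03, -0.04 and 0.02 once group means were removed. Psca and Prss22, which lack values in some libraries, were left out. Before group means were removed, other lists gave values as high, such as endothelium with Anxa1 (0.81) and the T cell marker with Plaur (0.83). With group means removed these were 0.07 and 0.30. Colon epithelium then gave 0.79 with Ly6a, 0.76 with Plaur and 0.41 with Anxa1. All 10 markers of colon epithelium were present in every table, and in the mean response Muc2, the main mucin of goblet cells, was called higher (log2 FC 0.96, adjusted p = 0.00718, edgeR) and Car1, a carbonic anhydrase of colonocytes, lower (-0.80, adjusted p = 0.00465). Muc2 ranged from 2668 to 7000 CPM in treated B6, where the sum of the 10 markers ranged from 11387 to 15842 CPM. The part of Muc2 alone in the r of colon epithelium was not tested. Among other cell types, the macrophage marker C1qb rose in the mean response (log2 FC 0.62). All 8 macrophage markers tested were positive there (median 0.45), as were all 6 of endothelium (0.23) and 5 of 6 of fibroblasts (0.17). For smooth muscle 3 of 6 were positive (0.00289), and for B and plasma cells 3 of 6 (-0.09). The part of these cells in the responses was not tested. Of the listed neutrophil markers 2 of 8, and of the T cell markers 1 of 7, were in all tables, so these cells could not be followed well.

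Genes with the most similar pattern to each of the 7 genes over the 15 libraries are given as a description, since all points share group and library. For Clu they included H2-Ob (r = 0.935), a class II antigen presentation gene of B cells, and r with group means removed was 0.914. For Anxa1 they were Aldh1a3 (0.960), Slit3 (0.954) and Tnfrsf11b (0.935). Plaur followed Cwh43 (0.942), Scube1 (0.940) and 5330417C22Rik (0.927), and Plau followed Stc2 (0.937), Pde9a (0.899) and P2ry2 (0.894). Ly6a was most like Sbno2 (0.943), 1110018G07Rik (0.926) and Sik1 (0.922). Correlations were lower for Anxa8, with Mafg (0.873), Dmbt1 (0.855) and Ccdc3 (0.846), and for Cst6, with Gpsm1 (0.904), Trmt2a (0.847) and Lsm7 (0.840). Among the genes themselves r was 0.840 for Anxa1 with Plaur and 0.812 for Plau with Plaur, and 0.45 and 0.41 with group means removed. Of the genes named, r with group means removed was 0.14 to 0.49 for those of Plau, 0.39 to 0.54 for Plaur, 0.51 to 0.64 for Anxa8, 0.74 to 0.87 for Ly6a, 0.75 to 0.91 for Cst6 and 0.76 to 0.90 for Anxa1.

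**Figure D4:**
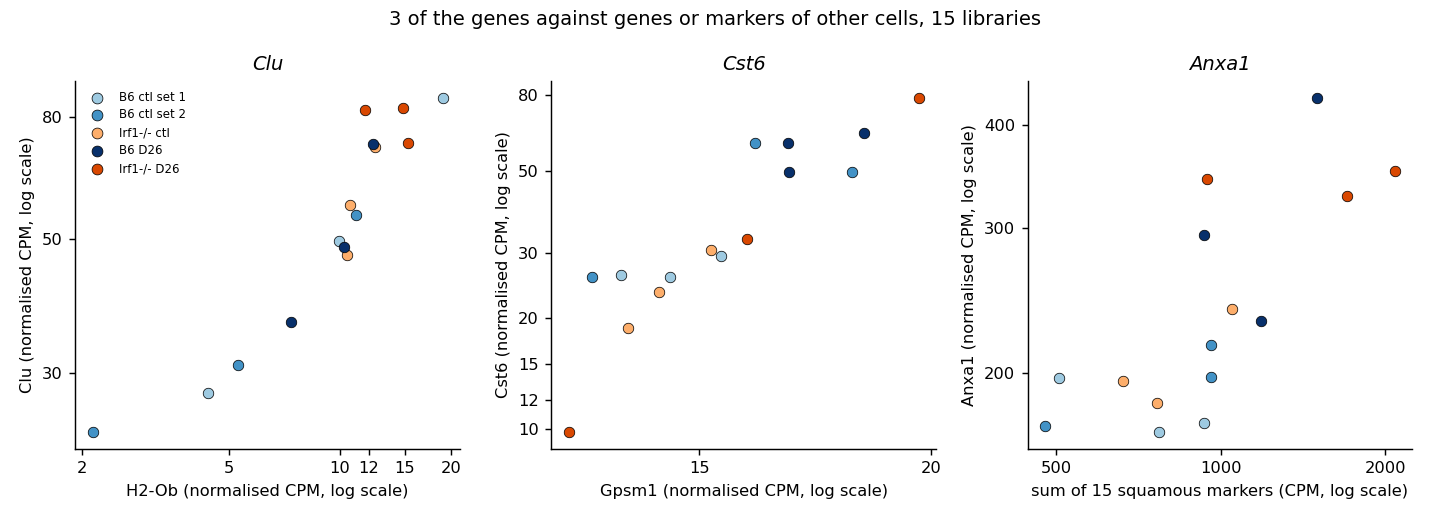
Normalised CPM on log axes in the 15 libraries (points, coloured by group; ctl, untreated) for Clu against H2-Ob, Cst6 against Gpsm1 and Anxa1 against the sum of the 15 squamous markers. Clu and H2-Ob vary together over the libraries (r = 0.935), while for Anxa1 and the squamous sum r falls from 0.75 to 0.34 once group means are removed.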

How the data were processed

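RNA was measured by stranded, rRNA-depleted, 50 bp paired-end sequencing in 15 libraries, 1 per mouse. Deposited files held raw read counts per gene, which the authors made with TopHat2 2.0.9, Bowtie 1.0.0 and featureCounts on mm9, per the submitters' processing notes. Deposited tables also carried 36 columns of CPM and log CPM and the authors' log2 fold changes and p-values, which were not used. Each table keeps genes at 5 CPM or more in 3 libraries, and the files' build differs from the reference used here, so coordinates are given only for RefSeq promoters, on GRCm38.p6. Counts of untreated mutants were identical, for shared genes, in the 2 tables that hold them. Genes of the 5 groups were compared with edgeR 4.0.16 (quasi-likelihood, TMM, R 4.3.3), with p-values adjusted over all genes of a fit, and the scripts were tested on simulated data. DESeq2 1.42.0, edgeR's exact test, limma 3.58.1 (voom), other filters, control sets, a replicate block and a GC correction were alternatives. Members of the set and all lists were chosen with earlier results of these data known. Every member was named, with companion genes called in any comparison (failing these, the 2 of smallest p) and the 3 genes of highest Pearson r of log2 (CPM + 0.5). Some genes that this rule selects are not reported here. Adjusted p-values do not measure spread. They set each difference against the variation between these mice, estimated with help from the other genes of the fit. Total counts of 22266607 to 22869853 per library leave counts of 19 to 36 for the lowest gene, Prss22, in untreated mutants.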

Additional observations from a re-analysis of the deposited data

How the results depend on the processing

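The mean response had 3 to 5 genes called under every alternative and with any mouse left out, against 4, though not always the same ones. Psca was called wherever it could be tested, Ly6a throughout, Anxa1 except without low-Xist libraries, and Plaur except with block and GC correction or without untreated mutant 2 or 3. The difference of the responses had 0 genes called in every fit. Untreated mutants over control set 2 had 2 called, 4 by the exact test and 1 in a single fit of all 15 libraries, against control set 1 and against both sets. In B6, 2 were called, 5 at adjusted p under 0.05, 6 by DESeq2 and by the exact test, 1 against control set 2, and 0 by voom, with the replicate block, with GC correction and with both (0 to 3 with 1 mouse left out). In mutants, 1 was called, 3 at adjusted p under 0.05, 4 by DESeq2 and the exact test, 3 with the replicate block and with block and GC correction, and 0 at 10 CPM or in the fit of all 15 libraries (0 to 1 with 1 mouse left out). Treated mutants over treated B6 had 1, against 2 by DESeq2, by the exact test and without the 3 low-Xist libraries, and 0 by voom, block, GC correction or both (0 with any mouse left out). Between control sets it was 0, and 1 by the exact test (0 to 1 with 1 mouse left out). The fit without low-Xist libraries, chosen after seeing the data, leaves 1 treated B6 mouse, assumed to vary like the others. The exact test was not run for the mean response or the difference. Same-numbered mice correlated at -0.224 to 0.251, not above 0.1 throughout, and the main fits used no replicate block. With 3 mice per group, these correlations cannot show whether mice of the same number shared a batch. The cause of these changes was not tested.

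Some signs changed. With control set 1 the untreated log2 FC of Ly6a was 0.0121. In the B6 response, Clu was 0.0408 by voom, 0.0301 with the block, 0.54 against set 2, 0.21 against both sets and 0.42 without low-Xist libraries, and Anxa8 was 0.78 against set 2 (adjusted p = 0.00848, edgeR) and 0.21 against both. For the difference of responses, control set 2 gave Anxa1 0.0227, Anxa8 -0.38, Clu -0.0824 and Cst6 0.39, both sets gave Cst6 0.0666, and the fit without low-Xist libraries gave Anxa1 0.36. Treated Anxa1 between genotypes was -0.0417 with GC correction and -0.00608 with block and GC correction. With 1 mouse left out, ranges that crossed 0 were, for the difference, -0.28 to 0.18 (Anxa1), -0.00521 to 0.80 (Clu), -1.27 to 0.11 (Cst6) and -0.31 to 0.0259 (Plaur), for the B6 response -0.40 to 0.34 (Anxa8) and -0.36 to 0.45 (Clu), for the mutant response -0.19 to 1.20 (Cst6), for the mean response -0.0141 to 0.35 (Anxa8), for Anxa1 between genotypes -0.0432 to 0.15 untreated and -0.0940 to 0.37 treated, and for Plau between control sets -0.19 to 0.15.

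Over all genes, alternatives gave 0 (voom, GC correction) to 480 (exact test) calls for the B6 response against 6, 13 (10 CPM) to 264 (exact test) for the mutant response against 32, 41 to 134 (exact test) for untreated genotypes against 51, 7 (block) to 275 (exact test) for treated genotypes against 48, 78 (block with GC correction) to 257 (adjusted p under 0.05) for the mean response against 162, 0 (control set 2) to 75 (DESeq2) for the difference against 2, and 5 to 187 (exact test) for the control sets against 8. With 1 mouse left out the counts were 0 to 152, 0 to 61, 26 to 64, 17 to 48, 82 to 239, 1 to 9 and 3 to 53 in the same order.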

Other observations

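Further genes followed Clu and Cst6, and these were picked after their values were seen. Cr2, a complement receptor of B cells and follicular dendritic cells, had r = 0.930 with Clu over the 15 libraries and 0.954 with group means removed. Krt79 and Klk10, a keratin and a protease of squamous epithelium, had r = 0.836 and 0.818 with Cst6.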
